A study of Mus musculus with 6 samples.

Results

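Genes of fatty acid synthesis, elongation, activation, storage and oxidation were followed in sorted cone photoreceptors of mice with and without the clock gene Bmal1. They were chosen by gene symbol, as the Elovl, Fads, Scd, Acs, Acad, Acot, Acox, Fabp, Dgat, Agpat, Lpcat, Pnpla and Hmgc families together with Fasn, Acaca, Acly, Lpl and the Cpt, Hadh, Acaa, Ech and Eci enzymes, with Fabp7 set aside. This rule found 66 genes of the 9720 protein-coding genes in the deposited table. In knockout animals both copies of Bmal1 were floxed (HRGPcre;Bmal1f/f;Z/EG). In controls 1 copy was floxed (HRGPcre;Bmal1f/+;Z/EG), so their cones keep 1 intact copy after recombination, although the series text calls the controls wild type. Both groups carried the HRGPcre transgene, in which a human red/green opsin promoter drives Cre in cones, and the Z/EG reporter, which gives eGFP where Cre has acted. All animals were on a C57BL/6 mixed background, had an age label that reads postnatal days 60-80 but also 2-6 months, and were kept in 12 h light and 12 h darkness. eGFP-positive cells were sorted from dissociated neural retinas, and each of the 3 knockout and 3 control libraries was made from 100 ng of RNA by poly(A) selection. The labels do not say how many animals went into a library or at what time of day cells were collected, so the p-values reflect the spread among these 6 libraries alone, and that spread may be technical.

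Photoreceptors renew the membranes of their outer segments throughout life, and these membranes are unusually rich in docosahexaenoic acid, a long polyunsaturated fatty acid. Fatty acids are bound by carrier proteins, activated to acyl-CoA, lengthened by ELOVL enzymes and given double bonds by desaturases, and then built into phospholipids by acyltransferases. They can also be burned as fuel, after transfer into mitochondria by the carnitine shuttle, through repeated rounds of dehydrogenation, hydration, a further dehydrogenation and thiolysis. In liver and fat, the circadian clock is known to drive daily rhythms in many lipid genes.

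Values are FPKM, that is, fragments per kilobase of transcript after scaling for library size, so levels can be compared between genes. How they were scaled is not stated. The FPKM of all genes summed to 102059, 102224 and 106900 in the knockout libraries and 84995, 106807 and 128773 in the control libraries. A low value in control 1 or a high one in control 3 may share this library-wide scale. FPKM keep no read total, so the depth is unknown and no counting interval can be given. All 10 cone markers were measured, and their summed level was 5523 to 6666 FPKM in knockout libraries and 4108 to 6923 FPKM in control libraries. All 15 rod markers were measured too, at 2645 to 3730 FPKM in knockout libraries and 3088 to 3797 FPKM in control libraries, so transcripts of rods were present in the sorted material of both groups. Of these 15, 9 had a positive and 6 a negative log2 difference. In 3 of them (Reep6, Cnga1 and Nr2e3) every knockout value lay above every control, and in 0 below, against 3.52% and 5.87% of all genes. Müller glia markers, of which 8 of 12 were measured, summed to 102 to 112 FPKM in knockout libraries and 92.1 to 121 FPKM in control libraries, a sum of which Car2 was the largest part. Within that list, the glia gene Apoe read 2.19, 3.002 and 1.78 FPKM in the knockout libraries and 4.64, 3.70 and 3.86 FPKM in the control libraries (unadjusted p = 0.0158, adjusted p = 0.771, limma). Clu, also a glia gene, read 21.1, 15.4 and 19.4 FPKM in knockout and 26.0, 24.8 and 27.1 FPKM in control. Both had every knockout value below every control. Of the 7 tested genes of that list, 3 had a positive and 4 a negative log2 difference. Car2 (0.17) and Glul (0.12) were among the positive ones. Of 13 bipolar cell markers, 11 were measured. They summed to 102 to 114 FPKM in knockout libraries and 90.1 to 127 FPKM in control libraries. The bipolar gene of smallest p, Gng13, read 2.16, 1.17 and 2.05 FPKM in knockout cones, against 6.31, 2.96 and 3.56 FPKM in control cones. Its knockout values lay below the controls (unadjusted p = 0.00617, adjusted p = 0.605, limma). The bipolar list as a whole went both ways. Among its 8 tested genes, 4 were higher and 4 lower in knockout, and the middle log2 difference was 0.075. The 2 measured of 7 amacrine markers summed to 5.005 to 8.15 FPKM in knockout libraries and 8.97 to 11.2 FPKM in control libraries, and the 3 measured of 8 ganglion cell markers to 2.08 to 2.32 FPKM in knockout libraries and 2.63 to 23.9 FPKM in control libraries. Control 1 was the high library for several markers of other cells. It had 21.1 FPKM of Stmn2 (ganglion cells), against at most 0.668 in any other library, and 6.65 FPKM of Pax6 (amacrine cells), against at most 2.22. Its Rdh5 (pigment epithelium) was 3.37 FPKM and its C1qb (microglia) 1.47 FPKM, the highest of the 6 libraries. The part of these cells in the levels of the fatty acid genes was not tested. In such bulk samples, fewer cells of a type and less RNA per cell cannot be told apart. The level of the deleted gene, Arntl, was 3.05 ± 0.663 FPKM in knockout and 2.96 ± 0.341 FPKM in control (mean ± SD, n = 3 each), which does not check the genotype labels because the labels do not say which part of the gene is floxed. The known BMAL1 target Nr1d1 read 2.87, 4.62 and 4.91 FPKM in the knockout libraries and 38.3, 47.1 and 56.3 FPKM in the control libraries, and fell in knockout, with a log2 difference of -3.24 ± 0.25 (SE; adjusted p = 0.000133, limma).

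No fatty acid gene passed the test between knockout and control cones. Of the 66 genes, 57 had a mean of at least 1 FPKM and were tested with limma on log2(FPKM + 1), and 0 of the 57 had an adjusted p of 0.05 or less. Over all 8627 genes tested, 9 passed, which is 0.104%, with 0.0464% higher and 0.058% lower in knockout. At an unadjusted p under 0.05, limma gave 6 of the 57 (10.5%), against 5.49% of all genes. Leaving out a library moved the 6 to between 2 without knockout 1 (3.51%, against 3.30% of all genes) and 7 without control 1 (12.3%, against 10.1% of all genes). The 6 were Fabp4 and Acadvl, with higher means in knockout (2 of 57, 3.51%, against 1.53% of all genes), and Fads2, Lpcat3, Elovl5 and Pnpla7, with lower means (4 of 57, 7.02%, against 3.96%). The knockout and control ranges were apart for 6 of the 57 (10.5%), against 9.39% of all genes. Knockout lay above control in 2 of them, Fabp4 and Acadvl (3.51%, against 3.52% of all genes). Knockout lay below control in 4 of them, Fads2, Agpat5, Acad8 and Acox3 (7.02%, against 5.87%). The median log2 difference, knockout minus control, was -0.016 over the 57 genes and -0.016 over all genes tested. It was positive for 28 of the 57 (49.1%), against 47.4% of all genes, and negative for 29 (50.9%), against 52.6%. The differences ran from -0.75 for Lpcat3 to 0.92 for Fabp4.

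**Figure D1:**
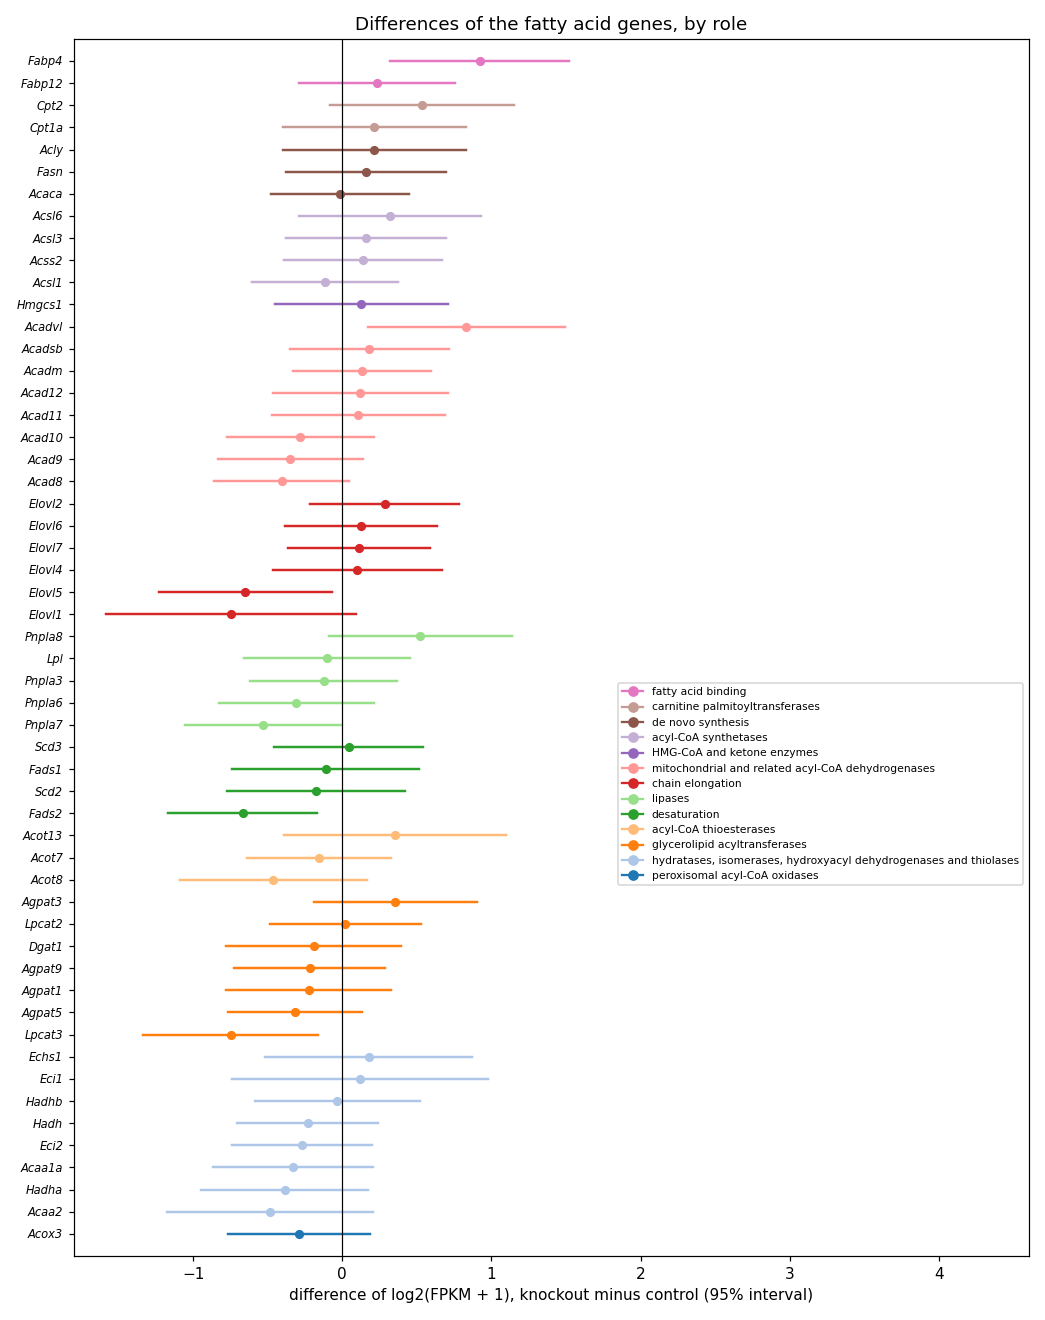
Difference in log2(FPKM + 1), knockout minus control, for 54 of the 57 tested fatty acid genes, as points with 95% intervals from limma (unadjusted for the number of genes), coloured by role and ordered by role median. Most intervals include 0, and the 6 genes whose intervals do not are Fabp4 and Acadvl on the positive side and Fads2, Lpcat3, Elovl5 and Pnpla7 on the negative side.

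The carriers and activating enzymes included some of the most abundant members. Fabp12, a fatty acid binding protein gene expressed in retina, read 53.8, 52.1 and 40.3 FPKM in knockout and 35.3, 40.6 and 48.0 FPKM in control. Its ranges overlapped, with a log2 difference of 0.23 ± 0.24 (SE; adjusted p = 0.986, limma). Fabp4, a fatty acid binding protein known from adipocytes, macrophages and capillary endothelium, was far lower and read 9.69, 6.23 and 4.95 FPKM in knockout cones, against 2.40, 2.55 and 4.596 FPKM in control cones. The knockout range lay above the control range, although the lowest knockout and the highest control value were close. The ratio of means was 2.18 (log2 difference 0.92 ± 0.28, unadjusted p = 0.00587, adjusted p = 0.586, limma), the smallest p among the members. Pecam1, the measured one of 8 listed vascular markers, read 1.23, 1.25 and 1.30 FPKM in the knockout libraries and 0.664, 0.593 and 0.812 FPKM in the control libraries. The knockout range lay above the control range, as for Fabp4. The other 7 vascular markers were not analysed here. Alas2, the measured one of 6 listed red blood cell markers, read 5.29, 4.98 and 3.06 FPKM in knockout and 2.92, 1.48 and 2.93 FPKM in control, also with knockout above control, and C1qb, the measured one of 8 listed microglia markers, was at most 1.47 FPKM in any library. The part of these cells in the level of Fabp4 was not tested. Fabp4 and Fabp12 lie close together on chromosome 3 (GRCm38), with Fabp4 from 10204088 to 10208576 and Fabp12 from 10244209 to 10301183.

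Acyl-CoA synthetases trap fatty acids in the cell by joining them to coenzyme A. Acsl6, which in mouse favours docosahexaenoic acid, read 52.2, 47.1 and 43.4 FPKM in knockout cones, against 24.5, 44.7 and 49.3 FPKM in control cones. Control 1 was the low library and the other 5 overlapped (log2 difference 0.32 ± 0.28, adjusted p = 0.976, limma), and without control 1 the log2 difference was 0.015. Acsl3, an enzyme of the endoplasmic reticulum and lipid droplets, read 42.3, 41.8 and 45.3 FPKM in the knockout libraries and 30.3, 37.0 and 50.8 FPKM in the control libraries. Its ranges overlapped too (log2 difference 0.16 ± 0.25, adjusted p = 0.9996, limma), and its sign turned without control 1. Acsl1 was next at 25.5 ± 2.21 FPKM in knockout and 27.8 ± 4.45 FPKM in control, and Acss2, which activates acetate, was lower at 2.54 ± 0.625 FPKM in knockout and 2.26 ± 0.826 FPKM in control. Together the 4 synthetase genes summed to 119 ± 2.197 FPKM in knockout and 109 ± 27.6 FPKM in control per library.

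Building of new fatty acids starts from citrate. Acly, which splits citrate into acetyl-CoA, was the most abundant of its group and read 70.1, 76.1 and 51.6 FPKM in knockout and 40.02, 74.9 and 58.2 FPKM in control. Groups overlapped widely, with a log2 difference of 0.22 ± 0.28 (adjusted p = 0.9996, limma) whose sign turned without control 1. The enzymes after it were far lower in FPKM, a per-length scale. Acaca, which makes malonyl-CoA and commits carbon to synthesis, measured 4.02 ± 0.785 FPKM in knockout and 4.05 ± 0.403 FPKM in control. Fasn, the fatty acid synthase itself, read 1.93, 1.41 and 2.83 FPKM in knockout cones, against 1.68, 1.21 and 2.28 FPKM in control cones. Neither separated the groups, and Fasn had a log2 difference of 0.16 ± 0.25 (adjusted p = 0.9996, limma).

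Elovl2 and Elovl4 stood above the other ELOVL genes, which lengthen fatty acid chains. Elovl2, which lengthens the precursors of docosahexaenoic acid, read 44.5, 49.8 and 43.9 FPKM in the knockout libraries and 34.1, 34.4 and 45.1 FPKM in the control libraries. Of the 3 control values, 2 lay below every knockout value and 1 lay among them (log2 difference 0.29 ± 0.23, adjusted p = 0.960, limma). Elovl4, which makes the very long chain fatty acids of photoreceptor membranes and is mutated in a dominant human macular dystrophy, read 35.3, 29.2 and 41.8 FPKM in knockout and 24.7, 33.3 and 42.3 FPKM in control. The knockout range lay inside the control range, with a log2 difference of 0.10 ± 0.26 (adjusted p = 0.9996, limma). Elovl6, which lengthens palmitate, measured 12.3 ± 1.38 FPKM in knockout and 11.3 ± 2.90 FPKM in control, and Elovl7 measured 5.27 ± 1.14 FPKM in knockout and 4.75 ± 0.468 FPKM in control. By mean level over the 6 libraries, the order was Elovl2, Elovl4, Elovl6, Elovl5, Elovl7 and Elovl1. Elovl2 stood above Elovl4 in 6 of 6 libraries and Elovl6 above Elovl5 in 5 of 6, but in both pairs the ranges over the 6 libraries overlapped. The ranges of Elovl5 and Elovl7, and of Elovl7 and Elovl1, overlapped too, and the range of Elovl4 lay wholly above that of Elovl6.

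Elovl5, which lengthens shorter polyunsaturated chains before Elovl2 acts, had a different pattern. It read 4.85, 5.59 and 9.002 FPKM in knockout cones, against 11.2, 7.75 and 13.0 FPKM in control cones. The highest knockout value lay between the control values, and the other 2 knockout values lay below all of them. The ratio of means, knockout over control, was 0.610, with a log2 difference of -0.65 ± 0.27 (unadjusted p = 0.0312, adjusted p = 0.895, limma). Elovl1, which acts on saturated very long chains, read 1.40, 1.39 and 0.443 FPKM in the knockout libraries and 5.78, 0.983 and 1.91 FPKM in the control libraries. Control 1 was the high library, and the other 5 overlapped (log2 difference -0.75 ± 0.39, adjusted p = 0.900, limma). Without control 1 the log2 difference of Elovl1 was -0.25.

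Desaturases were all low, at a mean of at most 2.35 FPKM over the 6 libraries. Fads2, the first and rate-limiting desaturase in the making of long polyunsaturated fatty acids, read 0.505, 1.32 and 1.08 FPKM in knockout and 1.98, 2.39 and 1.87 FPKM in control. Every knockout value lay below every control value. The ratio of means was 0.464, with a log2 difference of -0.67 ± 0.23 (unadjusted p = 0.0131, adjusted p = 0.763, limma). Fads1, the desaturase that acts after it, lies near Fads2 on chromosome 19 (GRCm38; Fads2 from 10062765 to 10101746, Fads1 from 10182888 to 10196877). It read 1.52, 1.40 and 1.92 FPKM in knockout cones, against 0.734, 2.28 and 2.93 FPKM in control cones, with overlapping groups (log2 difference -0.11 ± 0.29). Scd2, a stearoyl-CoA desaturase of brain, read 1.90, 1.74 and 2.61 FPKM in the knockout libraries and 1.29, 2.87 and 3.66 FPKM in the control libraries. Its log2 difference was -0.18 ± 0.27 (adjusted p = 0.9996, limma) and turned positive without control 3. Scd3 measured 2.35 ± 0.462 FPKM in knockout and 2.28 ± 0.686 FPKM in control. Scd2 and Scd3 are close paralogs, so reads may be shared between them.

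**Figure D2:**
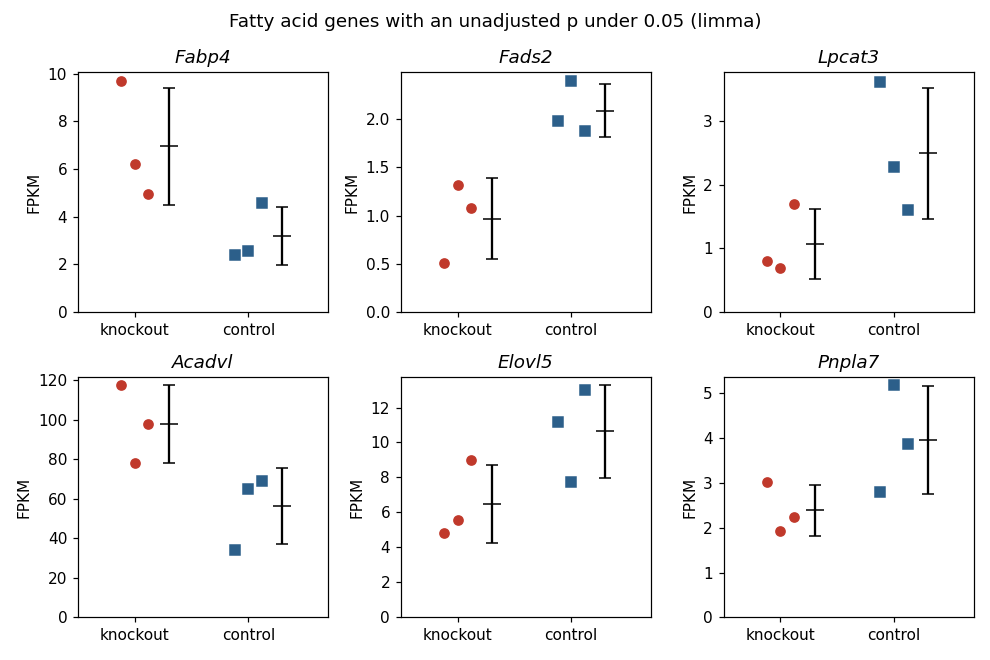
FPKM of the 6 fatty acid genes with an unadjusted p under 0.05 in limma, with 3 knockout libraries (circles) and 3 control libraries (squares) per gene, and the mean with SD as bars. Knockout and control values do not overlap for Fabp4, Acadvl and Fads2, and overlap for Lpcat3, Elovl5 and Pnpla7.

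Acyltransferases build fatty acids into phospholipids and triglycerides. Agpat3, which makes phosphatidic acid and in mouse retina handles docosahexaenoic acid, led the group and read 42.7, 59.2 and 66.0 FPKM in knockout and 45.7, 36.3 and 47.4 FPKM in control. The top 2 knockout values lay above every control value, and the lowest lay among them (log2 difference 0.35 ± 0.25, adjusted p = 0.939, limma). Lpcat2 was next at 13.4 ± 0.428 FPKM in knockout and 13.5 ± 3.34 FPKM in control. Lpcat3, which puts polyunsaturated chains into phosphatidylcholine, read 0.808, 0.696 and 1.69 FPKM in knockout cones, against 3.61, 2.27 and 1.59 FPKM in control cones. The highest knockout value was just above the lowest control value, and the other 2 lay below all controls. The ratio of means was 0.427 (log2 difference -0.75 ± 0.27, unadjusted p = 0.0167, adjusted p = 0.784, limma). Exons of Lpcat3 share 10.2% of their length with Emg1 on the opposite strand, which measured 19.5 ± 4.07 FPKM in knockout and 22.3 ± 3.59 FPKM in control, and the sources used here do not give whether strand was used in counting. Agpat5, a mitochondrial acyltransferase, read 6.06, 6.999 and 7.59 FPKM in the knockout libraries and 8.71, 8.43 and 9.26 FPKM in the control libraries. Knockout libraries were all below the controls, with a log2 difference of -0.32 ± 0.21 (adjusted p = 0.934, limma), and 18.9% of its exonic length is shared with the antisense gene model Gm35934, which was not analysed here. Dgat1, which makes triglyceride, measured 7.501 ± 2.34 FPKM in knockout and 8.60 ± 2.09 FPKM in control, Agpat9 (now named Gpat3) measured 5.01 ± 0.194 FPKM in knockout and 6.14 ± 1.76 FPKM in control, and Agpat1 measured 2.13 ± 0.750 FPKM in knockout and 2.63 ± 0.735 FPKM in control.

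Lipases and phospholipases of the PNPLA family were of moderate level. Pnpla3, a lipid droplet lipase, was the highest and read 9.32, 8.66 and 10.6 FPKM in knockout and 10.01, 8.61 and 13.2 FPKM in control. Its groups overlapped, with a log2 difference of -0.12 ± 0.23 (adjusted p = 0.9996, limma) whose sign turned without control 3. Pnpla7, a lysophospholipase, read 3.02, 1.92 and 2.23 FPKM in knockout cones, against 2.80, 5.18 and 3.87 FPKM in control cones. The highest knockout value lay among the controls, and the other 2 lay below all of them. The ratio of means was 0.605 (log2 difference -0.53 ± 0.24, unadjusted p = 0.0482, adjusted p = 0.897, limma). Pnpla8, a calcium-independent phospholipase of mitochondria and peroxisomes, read 4.88, 5.12 and 5.88 FPKM in the knockout libraries and 1.98, 3.10 and 5.81 FPKM in the control libraries. Here the highest control value lay among the knockout values, and the other 2 lay below them (log2 difference 0.52 ± 0.28, adjusted p = 0.909, limma). The difference was 0.25 without control 1 and 0.84 without control 3. Pnpla6 measured 2.61 ± 0.401 FPKM in knockout and 3.55 ± 1.18 FPKM in control, and Lpl, the lipase that frees fatty acids from lipoproteins, measured 1.002 ± 0.0244 FPKM in knockout and 1.23 ± 0.756 FPKM in control.

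BMAL1 binds DNA with CLOCK at E-box elements, so the 250 bases before the start of each member were searched for the canonical E-box CACGTG, which reads the same on both strands. RefSeq promoters (GRCm38.p6) matched 50 of the 66 members. Of these, 3 held the motif (6%), against 6.86% of the 27025 genes with a promoter in that table. The 3 were Elovl5, Pnpla7 and Echdc2, and their windows are shown because they hold the motif. The values of Echdc2 are given for the same reason. The motif is in capitals, in lines that run 5′ to 3′ on the plus strand. It starts 161 bases before the start of Elovl5 (chr9:77917115-77917364), 63 before that of Pnpla7 (chr2:24975783-24976032) and 163 before that of Echdc2 (chr4:108165187-108165436).
Elovl5: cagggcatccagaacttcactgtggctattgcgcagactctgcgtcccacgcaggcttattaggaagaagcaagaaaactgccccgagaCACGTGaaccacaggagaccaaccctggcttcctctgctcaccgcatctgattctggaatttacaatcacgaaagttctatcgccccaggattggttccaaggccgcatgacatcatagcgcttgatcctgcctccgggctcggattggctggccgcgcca
Pnpla7: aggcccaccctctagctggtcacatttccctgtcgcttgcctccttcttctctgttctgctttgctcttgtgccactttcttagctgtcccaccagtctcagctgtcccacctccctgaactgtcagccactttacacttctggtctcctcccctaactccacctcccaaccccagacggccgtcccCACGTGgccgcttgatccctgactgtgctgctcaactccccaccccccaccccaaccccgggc
Echdc2: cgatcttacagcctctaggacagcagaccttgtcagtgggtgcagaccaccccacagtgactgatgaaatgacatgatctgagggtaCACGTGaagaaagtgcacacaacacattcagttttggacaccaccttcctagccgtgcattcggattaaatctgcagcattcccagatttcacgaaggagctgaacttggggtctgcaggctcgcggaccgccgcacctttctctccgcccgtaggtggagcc
Echdc2, an enoyl-CoA hydratase domain gene, was below the level for testing and read 0.177, 0.1 and 0.1 FPKM in knockout and 0.382, 2.12 and 0.449 FPKM in control. All 3 knockout values lay at or near the floor of 0.1 FPKM and below all controls, of which control 2 was the high one. Without the filter its log2 difference was -0.71 ± 0.32 (unadjusted p = 0.0433, adjusted p = 0.892, limma). Only control 2 exceeded 1 FPKM, the level that each listed gene exceeds in at least 1 library. Echdc2 thus entered the table through the control group alone, which favours a lower knockout. None of the 3 passed the test, and a motif match is a description of the window and not evidence of binding.

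The carnitine shuttle moves long fatty acids into mitochondria. Cpt1a, its rate-limiting outer membrane enzyme, was abundant and read 37.2, 28.5 and 34.9 FPKM in knockout cones, against 18.7, 31.8 and 39.1 FPKM in control cones. Control 1 was the low library and the other 5 overlapped (log2 difference 0.22 ± 0.28, adjusted p = 0.9996, limma), and its sign turned without control 1. Cpt2, the inner membrane enzyme, was lower and read 4.49, 2.63 and 3.17 FPKM in the knockout libraries and 0.963, 2.78 and 2.67 FPKM in the control libraries. The lowest knockout value lay just under 2 of the controls, and control 1 was again the low library (log2 difference 0.54 ± 0.28, adjusted p = 0.909, limma). Without control 1 the log2 difference was 0.23.

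Acadvl had the highest mean of the 66 genes, at rank 144 of 9720 in the table. It encodes the very long chain acyl-CoA dehydrogenase, which starts mitochondrial oxidation of long fatty acids. It read 117, 78.0 and 97.9 FPKM in knockout and 34.2, 65.2 and 69.3 FPKM in control. Each knockout library lay above each control, and control 1 was the lowest library. The means were 97.8 ± 19.7 FPKM in knockout and 56.2 ± 19.2 FPKM in control, a ratio of 1.74 (log2 difference 0.83 ± 0.30, unadjusted p = 0.0179, adjusted p = 0.788, limma). Without control 1 the log2 difference was 0.51. On the minus strand of chromosome 11, Acadvl spans 70010183 to 70015411 (GRCm38), and 42.9% of its exonic length is shared with exons of Dvl2 on the opposite strand. Dvl2 itself measured 1.98 ± 0.518 FPKM in knockout and 2.27 ± 0.875 FPKM in control, with a log2 difference of -0.11.

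**Figure D3:**
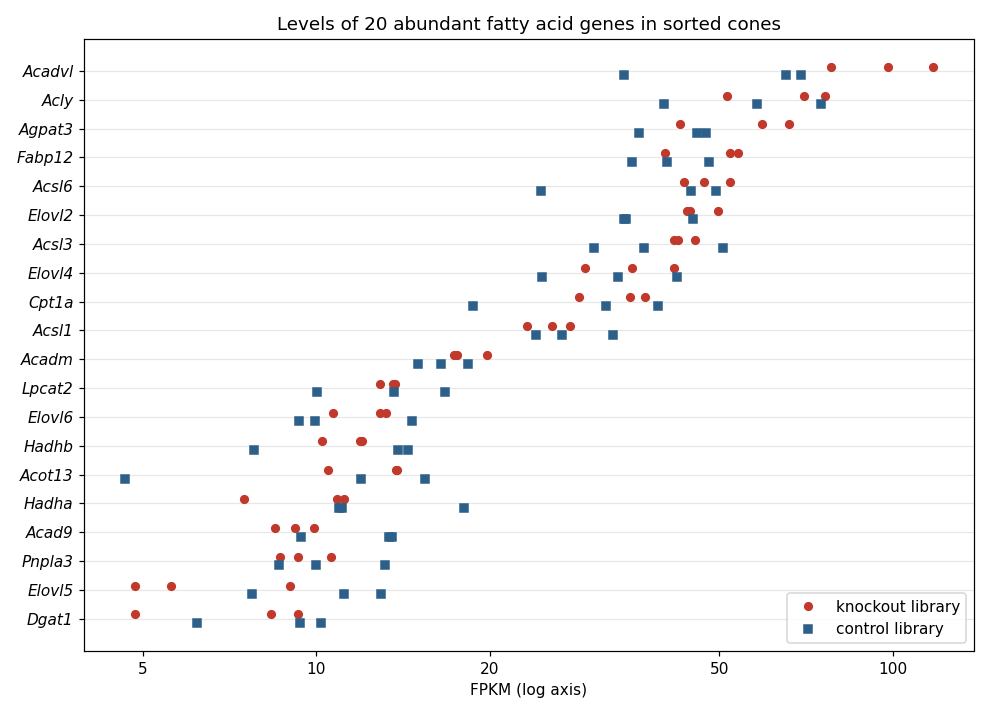
FPKM per library (log axis) of 20 abundant fatty acid genes, for 3 knockout libraries (circles) and 3 control libraries (squares), ordered by mean from Acadvl at the top. For Acadvl all knockout points lie to the right of the control points, while the 2 groups overlap for the other 19 genes.

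The other dehydrogenases were lower. Acadm, for medium chains, measured 18.2 ± 1.35 FPKM in knockout and 16.6 ± 1.67 FPKM in control, and Acad9, which also assembles respiratory complex I, measured 9.20 ± 0.723 FPKM in knockout and 12.1 ± 2.33 FPKM in control. Acad8, an isobutyryl-CoA dehydrogenase of valine breakdown, read 5.03, 4.30 and 4.17 FPKM in knockout cones, against 7.07, 6.01 and 5.81 FPKM in control cones. All 3 knockout values lay below all 3 controls, with a log2 difference of -0.41 ± 0.21 (adjusted p = 0.897, limma). Acadsb, Acad11, Acad10 and Acad12, the other 4, had means between 1.22 and 4.57 FPKM over the 6 libraries and overlapping groups.

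Hadha and Hadhb encode the 2 subunits of the mitochondrial trifunctional protein, and start 86 bases apart on opposite strands of chromosome 5. Hadhb read 12.0, 11.9 and 10.2 FPKM in the knockout libraries and 7.80, 13.9 and 14.4 FPKM in the control libraries. Groups overlapped, with a log2 difference of -0.032 ± 0.25 (adjusted p = 0.9996, limma). Hadha read 7.503, 11.2 and 10.9 FPKM in knockout and 18.0, 10.9 and 11.1 FPKM in control. Knockout 1 was the low library and control 1 the high one (log2 difference -0.39 ± 0.26, adjusted p = 0.934, limma), so control 1 was the highest of 6 for Hadha and the lowest of 6 for Hadhb. Without control 1 the log2 difference of Hadha was -0.17. Acaa2, the mitochondrial thiolase, read 1.15, 0.646 and 0.884 FPKM in knockout cones, against 0.475, 2.45 and 2.60 FPKM in control cones. Control 1 was the lowest library and the 2 other controls were the highest (log2 difference -0.49 ± 0.32, adjusted p = 0.934, limma). Without control 1 the log2 difference of Acaa2 was -0.90, with an adjusted p of 0.155 in limma, against 0.155 to 0.9998 over its 16 alternatives. The role that holds these genes covers hydratases, isomerases, hydroxyacyl dehydrogenases and thiolases, so it is not a single step of the pathway. Of its 8 tested genes, 6 had a negative log2 difference, against 52.6% of all genes. The median was -0.25, against -0.016 over all genes tested, with 0 of 8 past the threshold. Other roles went both ways. Positive were 5 of 8 acyl-CoA dehydrogenases, 4 of 6 elongation genes, 3 of 4 synthetases, 2 of 2 carnitine palmitoyltransferases and 2 of 2 binding proteins. Negative were 5 of 7 acyltransferases, 4 of 5 lipases and 3 of 4 desaturases. Acaa1a, a peroxisomal thiolase with a near-identical paralog, measured 6.20 ± 1.02 FPKM in knockout and 8.22 ± 2.37 FPKM in control, and Eci1, Echs1, Eci2 and Hadh had means between 1.68 and 3.19 FPKM over the 6 libraries.

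Acox3, a peroxisomal oxidase for branched chains, read 1.68, 2.49 and 2.23 FPKM in the knockout libraries and 2.51, 2.54 and 3.46 FPKM in the control libraries. The highest knockout value lay just below the lowest control value (log2 difference -0.29 ± 0.22, adjusted p = 0.960, limma). Thioesterases release fatty acids from coenzyme A. Acot13 read 13.8, 13.8 and 10.5 FPKM in knockout and 4.66, 12.0 and 15.5 FPKM in control. Control 1 was far below the other 5 libraries, which overlapped (log2 difference 0.35 ± 0.34, adjusted p = 0.984, limma), and without it the sign turned. Acot8, a peroxisomal thioesterase, read 1.07, 3.84 and 2.55 FPKM in knockout cones, against 4.05, 3.24 and 3.35 FPKM in control cones. Knockout 1 was the low library (log2 difference -0.46 ± 0.29, adjusted p = 0.929, limma). The log2 difference was -0.13 without knockout 1 and -0.74 without knockout 2. Exons of Acot8 share 12.3% of their length with Snx21 on the opposite strand, and whether strand was used in counting is not given. Snx21 read 1.52, 3.61 and 4.75 FPKM in knockout and 2.51, 5.44 and 4.27 FPKM in control, so knockout 1 was its lowest library too. Its part in the level of Acot8 was not tested. Acot7, a thioesterase abundant in neurons, measured 7.10 ± 0.807 FPKM in knockout and 8.10 ± 1.54 FPKM in control.

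Hmgcs1, which makes cytosolic HMG-CoA on the way to cholesterol, read 3.82, 1.88 and 3.22 FPKM in the knockout libraries and 1.84, 2.33 and 3.73 FPKM in the control libraries. The groups overlapped, with a log2 difference of 0.13 ± 0.27 (adjusted p = 0.9996, limma) whose sign turned without control 1 and without knockout 1.

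Besides Echdc2, 8 members were below a mean of 1 FPKM and were not tested. Hmgcll1, a gene of the HMG-CoA group, read 0.930, 0.991 and 1.24 FPKM in knockout and 0.769, 0.432 and 0.396 FPKM in control. All 3 knockout values lay above all 3 controls. Dgat2, a triglyceride synthase, read 0.382, 0.1 and 0.185 FPKM in knockout cones, against 0.358, 0.765 and 1.12 FPKM in control cones, and only the highest knockout value reached into the control range. Fabp5, known from skin and nervous tissue, read 0.106, 0.263 and 0.397 FPKM in the knockout libraries and 0.279, 1.20 and 0.771 FPKM in the control libraries, with overlapping groups. Lpcat4, Agpat4, Acot6, Echdc1 and Echdc3 had overlapping groups and means between 0.609 and 0.972 FPKM over the 6 libraries. Without the filter, 0 of the 66 members passed in limma, and 7 (10.6%, against 5.43% of all genes) had an unadjusted p under 0.05. Echdc2, which is in the table only through control 2, is among these 7. Dgat2 and Fabp5 exceeded 1 FPKM only in 1 control library, and Hmgcll1 only in 1 knockout library. Each of them thus entered the table through the group where it is higher.

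Libraries differed within the control group more than within the knockout group. Control 1 had the lowest of the 6 values in 28 of the 57 tested members (49.1%), against 39.1% of all tested genes. Control 3 had the highest value in 26 of the 57 (45.6%), against 34.8% of all tested genes. The median coefficient of variation of the 57 genes was 16.7% in knockout and 28.8% in control. Over all tested genes it was 18.6% in knockout and 25.7% in control. Summed over the 66 genes, the level was 754 ± 16.9 FPKM in knockout and 683 ± 127 FPKM in control per library. As a share of each library's FPKM sum, the 66 genes made up 0.754%, 0.72% and 0.706% in knockout, against 0.648%, 0.65% and 0.624% in control. These ranges were apart. Gm17364, a gene model, took 10.03% of all FPKM in control 3, against at most 2.88% for the top gene of any other library. With Gm17364 left out, the ranges were still apart, at 0.777%, 0.7395% and 0.723% in knockout, against 0.651%, 0.6665% and 0.694% in control. With Acadvl left out as well the shares were 0.659%, 0.662% and 0.63% in knockout, against 0.611%, 0.604% and 0.635% in control, and the ranges overlapped.

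**Figure D4:**
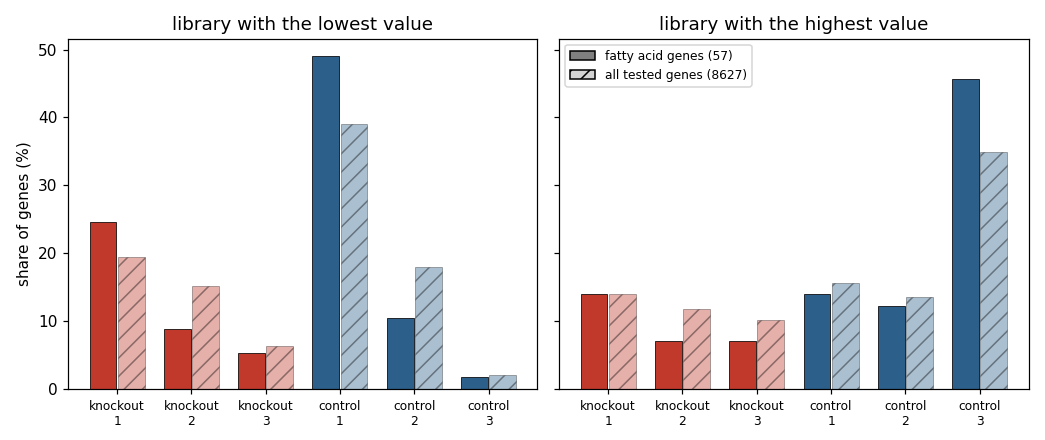
Share of genes (%) for which each library had the lowest (left) or the highest (right) of the 6 FPKM values, for the 57 tested fatty acid genes (solid bars) and all 8627 tested genes (hatched bars), with knockout libraries in red and control libraries in blue. Control 1 was most often the lowest and control 3 most often the highest, in both sets of genes.

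Partner genes of these pathways that the name rule does not take in were examined in 6 lists, and none of the 73 tested passed in limma, against 0.104% of all genes. At an unadjusted p under 0.05, 3 of them (4.11%, against 3.96% of all genes) were lower in knockout, namely Plin2, Slc25a20 and Mecr, and 0 were higher (against 1.53% of all genes). The lowest p was that of Plin2, which encodes the lipid droplet coat protein perilipin 2. It read 0.414, 0.794 and 0.848 FPKM in knockout and 2.66, 2.42 and 2.11 FPKM in control. All 3 knockout values lay below all 3 controls, at a ratio of means of 0.286 (log2 difference -1.02 ± 0.22, unadjusted p = 0.000463, adjusted p = 0.210, limma). No knockout value reached 1 FPKM, so Plin2 entered the table and the test only through its control values, which favours this direction. Its adjusted p ran from 0.0536 to 0.946 over 16 alternatives. In the same list of glycerolipid partners, the median log2 difference was -0.18 over 9 tested genes, 7 of which were negative, against 52.6% of all genes. Plin2 was the only gene of that list with an unadjusted p under 0.05 in limma. Lpin2, a phosphatidic acid phosphatase and the most abundant there, measured 15.8 ± 0.858 FPKM in knockout and 19.5 ± 3.30 FPKM in control, and Abhd5, an activator of triglyceride lipase, measured 5.43 ± 1.64 FPKM in knockout and 6.86 ± 0.571 FPKM in control. Positive log2 differences numbered 13 of 22 in the list of uptake and oxidation and 5 of 6 in that of mitochondrial synthesis. They numbered 8 of 17 for regulators, 8 of 16 for the mevalonate list and 0 of 3 for elongation partners.

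Among 22 tested genes of uptake, the carnitine shuttle and oxidation, the median log2 difference was 0.047. Slc25a20, the carnitine carrier of the inner mitochondrial membrane, read 3.93, 4.61 and 4.73 FPKM in knockout cones, against 5.49, 7.497 and 8.25 FPKM in control cones. All 3 knockout values lay below all 3 controls (log2 difference -0.56 ± 0.22, unadjusted p = 0.0252, adjusted p = 0.872, limma). Hsd17b10, a mitochondrial hydroxyacyl-CoA dehydrogenase, measured 1.18 ± 0.288 FPKM in knockout and 1.93 ± 0.328 FPKM in control, and Etfa, which passes electrons from the acyl-CoA dehydrogenases to the respiratory chain and was the most abundant of that list, measured 22.4 ± 6.72 FPKM in knockout and 19.97 ± 7.31 FPKM in control. Among the 3 tested partners of elongation, Tecr, the last enzyme of the elongation cycle, measured 67.1 ± 17.6 FPKM in knockout and 77.3 ± 4.85 FPKM in control, and Hacd3, a dehydratase of the cycle, measured 15.8 ± 1.84 FPKM in knockout and 18.3 ± 4.79 FPKM in control. Both had overlapping groups.

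Of the 6 tested genes of mitochondrial synthesis and precursor supply, Mecr, the mitochondrial enoyl-ACP reductase, read 1.53, 1.74 and 1.77 FPKM in the knockout libraries and 3.21, 1.98 and 3.39 FPKM in the control libraries. Its knockout values were all below the controls (log2 difference -0.51 ± 0.22, unadjusted p = 0.0423, adjusted p = 0.897, limma). Ndufab1, the mitochondrial acyl carrier protein, measured 21.2 ± 1.95 FPKM in knockout and 21.8 ± 10.8 FPKM in control, and Mcat, which loads malonate onto it, measured 1.35 ± 0.167 FPKM in knockout and 0.922 ± 0.672 FPKM in control. Of 17 tested regulators, Ppargc1a, a coactivator of mitochondrial genes, was the most abundant at 35.2 ± 4.13 FPKM in knockout and 35.4 ± 17.0 FPKM in control. Nr1h3, the liver X receptor alpha gene, measured 2.25 ± 0.396 FPKM in knockout and 1.42 ± 0.195 FPKM in control, with knockout values above all controls (log2 difference 0.42 ± 0.21, adjusted p = 0.897, limma). Rxra, a retinoid X receptor gene, measured 2.44 ± 1.02 FPKM in knockout and 4.12 ± 1.66 FPKM in control. Srebf1, the main activator of fatty acid synthesis genes in liver, measured 3.27 ± 1.13 FPKM in knockout and 3.14 ± 0.818 FPKM in control. Of 16 tested genes of the mevalonate pathway and ketone body use, Oxct1, which lets cells burn ketone bodies, was the most abundant at 18.7 ± 2.72 FPKM in knockout and 13.9 ± 5.73 FPKM in control. Ebp, a sterol isomerase, measured 2.25 ± 0.762 FPKM in knockout and 3.56 ± 1.07 FPKM in control, and Acat2, a cytosolic thiolase, measured 1.25 ± 0.0544 FPKM in knockout and 2.08 ± 0.797 FPKM in control, and both had knockout values below all controls. None of these passed.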

How the data were processed

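RNA of sorted mouse cones was sequenced as poly(A)-selected, strand-directional libraries, 3 knockout and 3 control, as the labels' protocols state. FPKM values of 9720 genes were deposited by the authors in a single table. Tools listed in the submitters' processing notes are HTSeq, DESeq2, Cufflinks 2.2.1 and TopHat2 2.1.0, with the build mm10. Which of these made the FPKM, the annotation, and whether counting used strand are not given there. The lowest value in the table is 0.1, a floor. Each listed gene exceeds 1 FPKM in at least 1 library, so genes low in every library were not analysed here.

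Groups came from the genotype labels. FPKM were transformed as log2(FPKM + 1), which understates the change of low genes. Genes averaging 1 FPKM or more over the 6 libraries (8627 genes) were fitted in limma 3.58.1 (R 4.3.3) with a variance trend, two-sided, knockout minus control, with Benjamini-Hochberg adjustment over all of them. A low gene can pass this filter through 1 group, which favours a difference in that direction. Fads2, Acaa2 and Plin2 passed through the controls, with knockout means under 1 FPKM, and Mcat through the knockouts. The code was tested on simulated data. Positions and exon overlaps are from GENCODE vM21 (GRCm38, the assembly of mm10). Read depth is unknown, and precision rests on the spread between libraries. Replicate numbers were not taken as pairs. Alternatives changed the pseudocount, filter, scaling, variance model, covariate, block and libraries.

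The members and the other gene lists were chosen with earlier results of these data known. Of the members, 3 are counted but not reported by name here. Apart from these, the members named in full are those with an unadjusted p under 0.05, the most abundant of each role and the 2 of smallest p in each role. From each partner list, the most abundant and the 2 of smallest p are named. Elovl4, Fads1, Srebf1, the genes below the filter and other members given by level were added after their values were seen.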

Additional observations from a re-analysis of the deposited data

How the results depend on the processing

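No member passed in limma under any of 17 alternatives, with 66 members tested without a filter and 29 with a filter of 5 FPKM. The smallest adjusted p was 0.155, for Acaa2 without control 1. The count of members at an unadjusted p under 0.05 was 6 of 57 as reported. It was 3 of 29 with the 5 FPKM filter (10.3%, against 5.14% of all genes). It was 8 of 57 (14%) with libraries rescaled to a common sum, with array weights and with the rod covariate, against 6.503%, 11.16% and 8.195% of all genes in that order. The median log2 difference of the members was -0.016 and ran from -0.16 to 0.092 when single libraries were left out. It was -0.10 with array weights, where the median of all genes was -0.036, and -0.10 with the rod covariate, where that of all genes was -0.079. The members' median varied between libraries of a group with an SD of 0.166, which is not the error of a difference between groups. Where control 1 was left out, the median of all genes moved to -0.099.

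With the replicate number as a block, 0 members passed, the members' median stayed at -0.016, and 6 genes of the whole table passed in limma, against 9 without it. The numbers do not pair the libraries: same-numbered libraries deviated with correlations of -0.118, -0.085 and -0.034.

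Of 745 pairs of a named gene and an alternative, 722 kept their sign and 23 turned sign, in 13 of 45 genes. No named gene passed the threshold under any alternative. None of the 6 genes with an unadjusted p under 0.05 was among the 13. They were picked for a small p in these same libraries, so this says little about how stable they are. With the rod covariate the log2 difference was -0.017 for Hmgcs1, -0.12 for Ndufab1 and -0.13 for Ppargc1a. With array weights it was -0.068 for Etfa, -0.25 for Ndufab1 and -0.0018 for Ppargc1a. When single libraries were left out, it ran from -0.033 to 0.34 for Hmgcs1, from -0.0084 to 0.35 for Acsl3, from -0.11 to 0.67 for Acot13, from -0.078 to 0.43 for Cpt1a, from -0.021 to 0.42 for Acly, from -0.015 to 0.32 for Fasn, from -0.47 to 0.040 for Scd2, from -0.29 to 0.11 for Hadhb, from -0.25 to 0.030 for Pnpla3, from -0.35 to 0.011 for Hacd3, from -0.14 to 0.39 for Etfa, from -0.39 to 0.37 for Ndufab1 and from -0.27 to 0.44 for Ppargc1a. The cause was not tested.

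The median of the desaturases was -0.14 as reported, -0.35 with the rod covariate and -0.47 without control 1. FPKM carry no depth, so low members such as Fads2 and Lpcat3 have no counting error attached.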
